A study of Sus scrofa with 6 samples.

Results

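Chromatin accessibility was examined at 9 genes of the pluripotent and early embryo, POU5F1, NANOG, SALL4, LIN28A, LIN28B, ZFP42, PRDM14, TDGF1 and TBXT, in single cells of pig somites and myotomes. The genes were listed by name, with earlier results of these data known. Each was searched for peaks, the stretches of open chromatin called in each library, that overlapped its gene body or the 10 kb upstream. TBXT is annotated under its older symbol T, and NANOG is annotated at 2 loci, a multi-exon gene on chromosome 5 and a single-exon copy on chromosome 1 (named NANOG-chr1 here), which made 10 loci. Peaks of the 6 libraries that overlapped by 1 bp were merged into regions, and 36 of the 294825 regions of the genome lay in the windows of these loci.

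In the embryo, pluripotency rests on a small circuit of transcription factors. POU5F1 (OCT4) and NANOG sit at its centre, SALL4 works with them, and ZFP42 (REX1) is a marker of the naive state. PRDM14 guards the naive state and the germ line. LIN28A and LIN28B are RNA-binding proteins that block the maturation of the let-7 microRNAs, and they stay active in embryonic progenitors for some time after pluripotency has ended. TDGF1 (CRIPTO) is the co-receptor for NODAL, and TBXT (brachyury) is the T-box factor of the primitive streak, tailbud and notochord. When such genes are shut, the promoter may close or the distant elements may close while the promoter stays open.

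The libraries came from Tibetan pigs (ZZ) and from Duroc × Tibetan crossbred pigs (DZ). Somites were taken at embryonic day (E) 18 and E21, and myotomes, from which trunk muscle forms, at E28. Each library pooled 5 embryos of 1 sow, and there was 1 library for each breed and stage, so the spread within a stage came from its ZZ and DZ libraries, which differed in breed and sow. Stage cannot be told apart from tissue at E28.

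Barcodes with 2000 to 30000 counts were kept, which left 9286 to 11243 per library with medians of 8084.5 to 11452 counts and totals of 89816504 to 133037579 counts. Between 113 and 157 kept barcodes were shared by each pair of libraries. The number of called peaks was 217138 and 199846 in the E18 ZZ and DZ libraries and 131975 and 137769 in those of E28. All 12 annotated myogenic markers had counts in each library. Clusters of cells with epithelial, neural progenitor and endothelial markers, described further on, also held barcodes in every library. Counts were deposited only inside called peaks, which means that 0 stands for the lack of a called peak, and no fold change is given against a group at 0. Levels are in CPM, counts scaled to the same total of kept counts in each library.

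The number of member regions with a called peak was 34 and 31 in the E18 ZZ and DZ libraries, 22 and 19 at E21, and 12 and 10 at E28. Of the 29 regions with a peak in both E18 libraries, 17 had no peak in either E28 library, against 44.8% of all such regions in the genome. Promoters and other elements were counted apart. A promoter was taken as 1 kb upstream to 500 bp downstream of an annotated transcript start. None of the 7 promoter regions was without a peak in both E28 libraries, with a genome-wide share of 11.2% for promoter regions. This count rests on merging at 1 bp: the POU5F1 region kept a peak only more than 1.5 kb upstream of its start. A stricter count took the E18 ZZ peaks with a reciprocal overlap of 50% with an E18 DZ peak. Of 6 such promoter peaks, 3 had no E28 peak with that overlap (50%, with 22.39% of all). These were LIN28A, SALL4 and ZFP42, whose E28 peaks were narrower, so narrowing was counted here together with loss. POU5F1 was not among the 6, since its peak was split in the E18 DZ library. Of the 22 introns, exons and upstream elements, 17 were lost, with a genome-wide share of 48.8%.

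The lost elements were weak at E18, with a median of 1.19 CPM and a range of 0.284 to 8.58 CPM, while the 12 regions that kept a peak at E28 had a median of 21.6 CPM. The weakest called peaks also lay higher at E28. The lowest 5% of peaks of 200 bp or more ended at 0.481 and 0.569 CPM in the E18 ZZ and DZ libraries and at 0.946 and 0.872 CPM in those of E28. Total counts and the number of called peaks were lower at E28 as well, and the part of these in the losses was not tested. In a bracket of 5 to 10 CPM at E18, chosen after the values were seen, 3 of the 4 non-promoter member regions were lost, with a genome-wide share of 15.2%. These 3 were the LIN28A element 7.6 kb upstream and the LIN28B elements at +10.7 kb and +83.2 kb, and the fourth was NANOG-chr1 at −7.9 kb, which kept a peak in the E28 ZZ library.

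**Figure D1:**
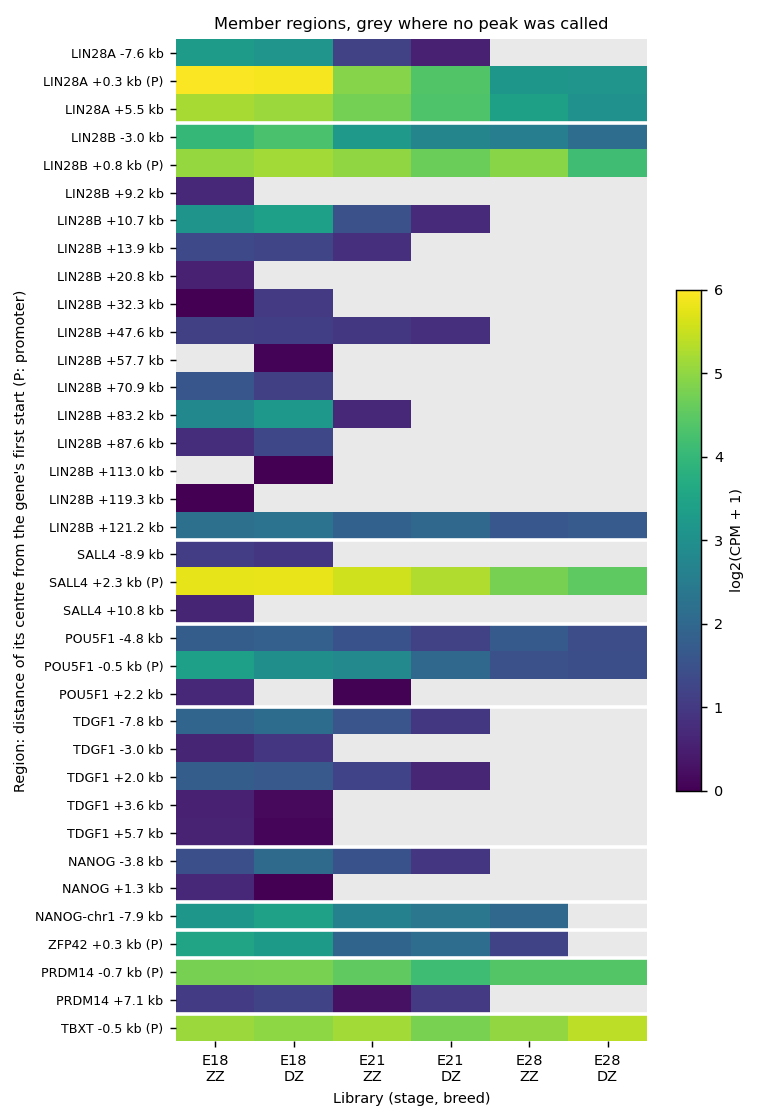
Level of each of the 36 member regions in each library as log2(CPM + 1), with rows named by gene and by the distance of the region's centre from the first annotated start (P marks promoter regions) and grey where no peak was called. Member regions with a peak number 34 and 31 at E18 but 12 and 10 at E28, and the rows that stay coloured throughout are mostly promoters.

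Summed over each gene window, 7 of the 10 loci fell between E18 and E28 (edgeR quasi-likelihood test over all 24852 gene windows, adjusted p under 0.05), and 23.2% of all windows fell. No locus rose by edgeR or by DESeq2, and none was higher at an unadjusted p under 0.05, with 19.9% of all windows called higher by edgeR. The 7 were LIN28A, LIN28B, SALL4, POU5F1, PRDM14, TDGF1 and NANOG. TDGF1 and NANOG had no called peak at E28, so their calls rest on the lack of a peak and not on measured levels. TBXT did not pass in either direction. ZFP42 and NANOG-chr1 had a peak in the E28 ZZ library but not in the E28 DZ library and did not pass. Without the E18 ZZ library, or without the E18 DZ library, 4 loci were called (LIN28A, LIN28B, SALL4 and TDGF1), and 12.3% and 6.70% of all windows were. With the called length of each library as an offset, 2 of the 6 loci with a peak in every library were called, LIN28A and SALL4, and 1.68% of all windows.

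**Figure D2:**
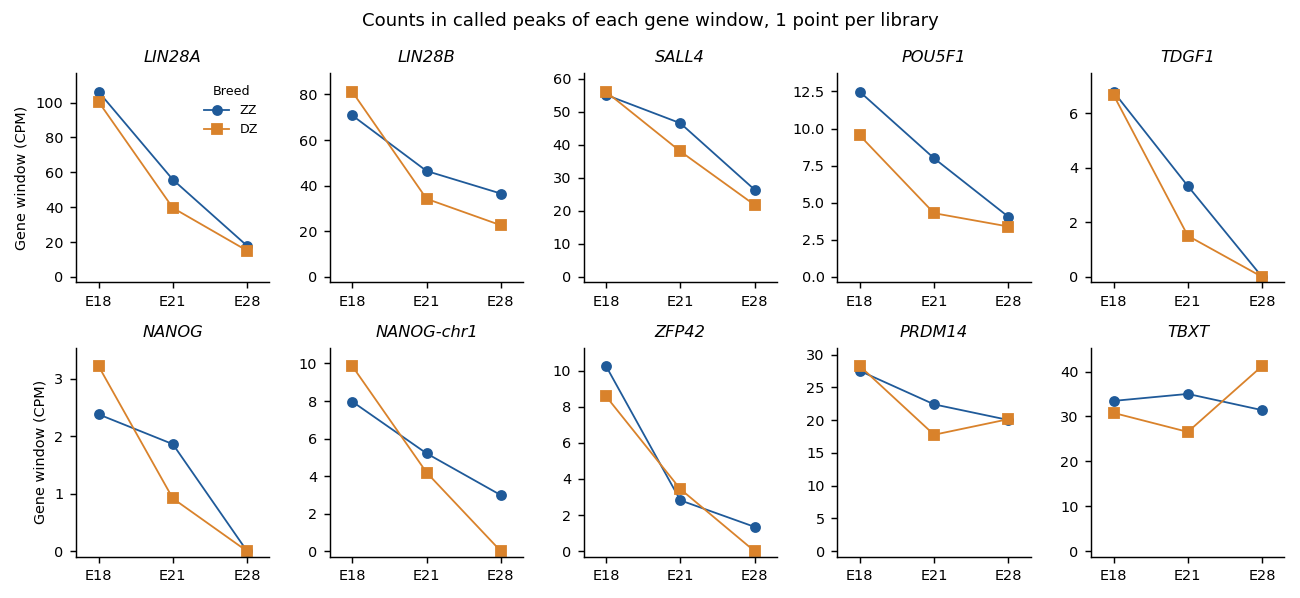
Level of each of the 10 loci, the summed counts of called peaks in the gene body and 10 kb upstream, in CPM by stage, with 1 point per library and lines joining the libraries of a breed. LIN28A goes from 106 and 100.5 CPM to 17.8 and 15.0 CPM, while TBXT stays between 26.6 and 41.2 CPM.

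LIN28A was less open at each later stage, and its start was no longer in a peak at E28. The gene spans 12.4 kb on the plus strand (chr6:83806178-83818550) and held 3 regions. Its window measured 106 and 100.5 CPM in the E18 ZZ and DZ libraries, 55.8 and 39.6 CPM at E21 and 17.8 and 15.0 CPM at E28. The stages did not overlap, and every step passed the test, but the call from E18 to E21 was lost when any 1 of its 4 libraries was left out, and that from E21 to E28 when either E21 library was. The log2 change was −1.14 ± 0.12 (SE) from E18 to E21 (edgeR adjusted p = 0.0297), −1.56 ± 0.12 from E21 to E28 (adjusted p = 0.0144) and −2.70 ± 0.12 over the whole span (adjusted p = 0.00207). With called length as an offset, the step from E21 to E28 turned to 0.18 over the window (adjusted p = 0.297) and to 0.36 in the promoter region, while the promoter count stayed lower at −0.91 (adjusted p = 0.0135).

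The promoter region of LIN28A measured 61.3 and 59.7 CPM at E18, 28.9 and 19.7 CPM at E21 and 8.11 and 7.79 CPM at E28, a log2 change of −2.98 ± 0.16 from E18 to E28 (edgeR over regions, adjusted p = 0.00258). At E18 it was 1 unbroken peak from 2.43 kb upstream to 2.95 kb downstream of the start in the ZZ library, and nearly the same in the DZ library. By E28 this peak had broken up. What remained was a peak 2.4 to 1.81 kb upstream of the start with 5.75 CPM in the ZZ library, at the same place in the DZ library with 7.004 CPM, and a small peak just inside the gene with 2.36 and 0.791 CPM. The start itself lay in no called peak at E28 in either library. Counted over peaks that touch the promoter interval alone, LIN28A measured 61.3 and 59.7 CPM at E18 and 2.36 and 0.791 CPM at E28.

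The sequences are those of the pig assembly Sscrofa11.1, written 5′ to 3′ on the strand of the gene with each CpG in capitals. The first is the start of LIN28A, open at E18 and outside any peak at E28 (250 bases before to 50 after the start, chr6:83805928-83806227). The second is the centre of the upstream peak that stayed (chr6:83803977-83804176), and the third the centre of the element 7.6 kb upstream that was lost (chr6:83798508-83798707).
LIN28A promoter: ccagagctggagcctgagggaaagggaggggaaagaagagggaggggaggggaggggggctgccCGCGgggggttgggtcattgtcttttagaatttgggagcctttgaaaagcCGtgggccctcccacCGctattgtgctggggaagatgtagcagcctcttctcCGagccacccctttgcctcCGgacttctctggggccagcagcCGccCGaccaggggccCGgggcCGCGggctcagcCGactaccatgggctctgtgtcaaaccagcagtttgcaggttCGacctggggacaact
LIN28A upstream element, kept: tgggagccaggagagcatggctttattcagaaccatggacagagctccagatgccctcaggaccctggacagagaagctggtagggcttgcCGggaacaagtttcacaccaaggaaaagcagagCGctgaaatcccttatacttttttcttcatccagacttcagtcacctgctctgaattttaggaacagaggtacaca
LIN28A element at −7.6 kb, lost: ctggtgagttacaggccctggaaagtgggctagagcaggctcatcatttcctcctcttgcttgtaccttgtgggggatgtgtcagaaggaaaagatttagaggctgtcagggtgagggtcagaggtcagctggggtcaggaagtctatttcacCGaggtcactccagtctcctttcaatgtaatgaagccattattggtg
The promoter held 13 CpG in 300 bases, and the kept and the lost element held 2 and 1 in 200 bases.

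The element 7.6 kb upstream measured 8.94 and 7.81 CPM at E18, 1.24 and 0.469 CPM at E21 and had no called peak at E28. The intron region of LIN28A at +5.5 kb had a peak in every library. It measured 36.0 and 33.0 CPM at E18, 25.7 and 19.5 CPM at E21 and 9.70 and 7.25 CPM at E28. The log2 change was −0.69 ± 0.13 from E18 to E21 (edgeR adjusted p = 0.0406) and −2.09 ± 0.13 from E18 to E28 (adjusted p = 0.00258). The E18 to E21 call was lost when all regions called in at least 2 libraries were tested. Per kb of called peak the region measured 9.04 and 9.08 CPM at E18 and 7.18 and 6.39 CPM at E28. The region also lies in the window of the neighbouring gene DHDDS.

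**Figure D3:**
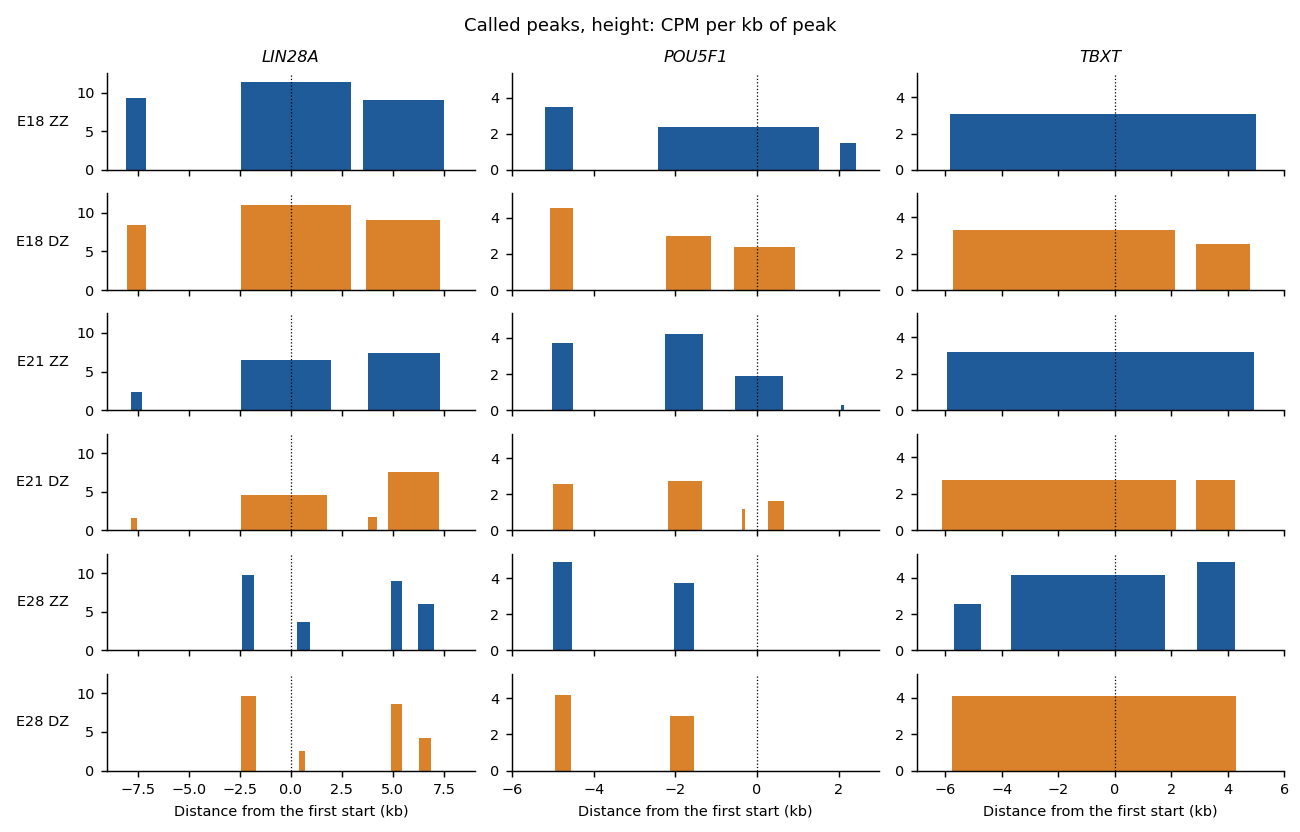
Called peaks at LIN28A, POU5F1 and TBXT in each library, placed by distance in kb from the first annotated start (dotted line), with the height of a bar its CPM per kb of peak and blue and orange for ZZ and DZ. At E28 LIN28A keeps narrow peaks away from its start, POU5F1 has no peak over its start, and TBXT keeps broad peaks across it.

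LIN28B, the paralogue of LIN28A, is a 122.8 kb gene on the plus strand (chr1:71173291-71296131) with 15 regions. It lost intron elements and kept its promoter peak. The window measured 70.8 and 81.2 CPM at E18, 46.4 and 34.2 CPM at E21 and 36.6 and 22.6 CPM at E28, a log2 change of −1.45 ± 0.21 (edgeR adjusted p = 0.0067). Of its 10 regions with a peak in both E18 libraries, 7 had none at E28, all of them in introns. The region at +10.7 kb measured 7.63 and 9.53 CPM at E18, 1.82 and 0.666 CPM at E21 and had no peak at E28. The region at +83.2 kb measured 5.95 and 8.25 CPM at E18 and 0.618 CPM in the E21 ZZ library, with no peak in the other libraries. The other 5 lost regions were weaker, at 0 to 2.05 CPM in the E18 libraries.

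Close to the LIN28B start lay an upstream element and the promoter, whose changes were not tested against each other. The region 3.0 kb upstream measured 14.9 and 18.2 CPM at E18, 8.46 and 5.69 CPM at E21 and 4.97 and 3.45 CPM at E28. It fell from E18 to E21 (log2 −1.33 ± 0.27, edgeR adjusted p = 0.0483) and from E18 to E28 (log2 −2.06 ± 0.28, adjusted p = 0.0053). The first of these calls was lost when all regions called in at least 2 libraries were tested. Most member region calls of that step were lost when 1 of its libraries was left out. The promoter region measured 32.1 and 35.0 CPM at E18, 31.2 and 24.1 CPM at E21 and 29.5 and 16.9 CPM at E28. Its E28 ZZ library lay close to E18 and its E28 DZ library was the lowest, and the difference missed the threshold (log2 −0.63 ± 0.20, edgeR adjusted p = 0.056). It passed by DESeq2 (adjusted p = 0.0121), without the E18 ZZ library (edgeR adjusted p = 0.028) and without the E28 ZZ library (0.00372). The centre of the lost element at +83.2 kb (chr1:71256412-71256611) is shown because the element had no peak after the E21 ZZ library. It was rich in A and T, with 1 CpG.
LIN28B element at +83.2 kb, lost: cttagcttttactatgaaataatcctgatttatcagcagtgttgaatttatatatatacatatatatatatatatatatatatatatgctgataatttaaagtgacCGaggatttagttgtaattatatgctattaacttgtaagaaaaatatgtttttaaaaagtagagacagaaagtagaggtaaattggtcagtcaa

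SALL4, a zinc-finger factor of pluripotent and early lineage cells, fell from E18 to E28. It spans 20.4 kb on the minus strand (chr17:53082610-53103023). Its promoter region, which reached into the gene, held almost all of its signal. It measured 53.5 and 55.2 CPM at E18, 46.6 and 38.0 CPM at E21 and 26.4 and 21.8 CPM at E28. The stages did not overlap. DESeq2 called the region lower already from E18 to E21, and the call from E21 to E28 was lost without either E21 library. The log2 change was −0.80 ± 0.11 from E21 to E28 (edgeR adjusted p = 0.0265) and −1.23 ± 0.11 from E18 to E28 (adjusted p = 0.00281). The change was uneven inside the region. The peak over the start went from 39.9 and 32.0 CPM at E21 to 19.8 and 15.1 CPM at E28, while a separate peak more than 4 kb inside the gene measured 6.70 and 6.06 CPM at E21 and 6.62 and 6.69 CPM at E28. A weak element 8.9 kb upstream (1.13 and 0.946 CPM at E18) had no peak after E18, and one at +10.8 kb was called in the E18 ZZ library alone.

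POU5F1, the core factor of the circuit, lost the peak over its start. It spans 6.0 kb on the minus strand (chr7:23564654-23570691), with 3 regions. Its window measured 12.5 and 9.53 CPM at E18, 7.99 and 4.29 CPM at E21 and 4.05 and 3.40 CPM at E28, a log2 change of −1.59 ± 0.32 (edgeR adjusted p = 0.015), a call that was lost without either E18 library. Its promoter region measured 9.49 and 6.94 CPM at E18, 6.11 and 3.04 CPM at E21 and 1.81 and 1.71 CPM at E28 (log2 −2.24 ± 0.33, edgeR adjusted p = 0.00617). As at LIN28A, the peak over the start was lost and an upstream piece stayed. The E18 ZZ library had 1 peak from 2.44 kb upstream to 1.51 kb downstream. At E28 a single narrow peak was left, 2.03 to 1.54 kb upstream in the ZZ library, with no peak in the promoter interval in either E28 library. The region 4.8 kb upstream measured 2.40 and 2.59 CPM at E18, 1.86 and 1.26 CPM at E21 and 2.24 and 1.68 CPM at E28 and did not pass (adjusted p = 0.394).

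At POU5F1 the called width went down, and the level per kb of the peaks still called did not. Per kb of called peak, the promoter region measured 2.40 and 2.64 CPM at E18 and 3.74 and 3.01 CPM at E28. These values cover different bases, since at E28 only the upstream piece was called. The peak at that place measured 3.01 CPM per kb in DZ at both E18 and E28. In ZZ it measured 4.23 CPM per kb at E21 and 3.74 at E28. With the called length as an offset the window changed by 0.46 on the log2 scale (edgeR adjusted p = 0.0878). With the same offset the LIN28A and SALL4 windows fell by less, by 0.61 and 0.60 on the log2 scale (adjusted p = 0.000103 and 0.000548), and LIN28B no longer passed (log2 −0.06, adjusted p = 0.725). The start of POU5F1 (chr7:23570642-23570941, 16 CpG) and the centre of the piece that stayed (chr7:23572382-23572581, 3 CpG) are given for comparison with those of LIN28A.
POU5F1 promoter: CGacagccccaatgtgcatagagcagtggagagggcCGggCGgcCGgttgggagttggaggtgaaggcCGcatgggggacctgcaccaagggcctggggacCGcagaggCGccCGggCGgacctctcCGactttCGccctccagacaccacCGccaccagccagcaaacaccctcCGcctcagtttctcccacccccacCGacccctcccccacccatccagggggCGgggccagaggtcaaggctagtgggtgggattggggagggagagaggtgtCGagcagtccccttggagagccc
POU5F1 upstream element, kept: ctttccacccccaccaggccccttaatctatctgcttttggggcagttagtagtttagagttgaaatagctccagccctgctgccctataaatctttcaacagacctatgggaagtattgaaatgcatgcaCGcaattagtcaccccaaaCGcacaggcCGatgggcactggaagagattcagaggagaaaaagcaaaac

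TDGF1 and NANOG had no promoter peak in any library, and their few elements had no called peak at E28. TDGF1, a 6.8 kb gene (chr13:29537874-29544686), had 5 regions, all with a peak in both E18 libraries and none with a peak at E28. Its window measured 6.80 and 6.68 CPM at E18, 3.34 and 1.51 CPM at E21 and is listed at 0 in both E28 libraries. Its edgeR call (adjusted p = 0.0056) thus rests on the lack of a called peak and not on a measured level. The strongest region lay 7.8 kb upstream, with 2.89 and 3.33 CPM at E18 and 2.01 and 0.956 CPM at E21, in sequence that is also in the window of LRRC2. The intron region at +2.0 kb measured 2.39 and 2.22 CPM at E18 and 1.33 and 0.553 CPM at E21.

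NANOG on chromosome 5 (chr5:62931642-62939086) had 2 regions. The one 3.8 kb upstream measured 1.77 and 3.22 CPM at E18, 1.86 and 0.919 CPM at E21 and had no peak at E28. The window passed with E28 listed at 0 (edgeR adjusted p = 0.0169), a call that also rests on the lack of a peak. This call was lost without the E18 ZZ, the E18 DZ or the E21 ZZ library. The single-exon copy on chromosome 1 had 1 region, 7.9 kb upstream of it, inside an intron of THSD4. It measured 7.97 and 9.86 CPM at E18, 5.21 and 4.19 CPM at E21 and 2.98 CPM in the E28 ZZ library, with no peak in the E28 DZ library (edgeR adjusted p = 0.218). Without the E28 DZ library its log2 change was −1.64. Without the E28 ZZ library no E28 peak was left, so no change could be measured.

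ZFP42 had a single region, its promoter, at a 7.3 kb gene on the minus strand (chr17:7401729-7409027). It measured 10.3 and 8.58 CPM at E18, 2.82 and 3.44 CPM at E21 and 1.35 CPM in the E28 ZZ library, with no peak in the E28 DZ library. All 4 later libraries were below both E18 libraries, but with 1 library listed at 0 the test did not pass (edgeR adjusted p = 0.153 in the promoter fit). Without the E28 DZ library the log2 change over its window was −2.86. Without the E28 ZZ library no E28 peak was left, so no change could be measured. Its peak over the start narrowed from 1823 and 1682 bp at E18 to 449 bp in the E28 ZZ library.

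PRDM14 and TBXT kept broad open promoters through E28. The promoter region of PRDM14, a zinc-finger factor of naive pluripotent and germ cells, measured 26.5 and 26.9 CPM at E18, 22.2 and 16.7 CPM at E21 and 20.02 and 20.14 CPM at E28. Both later stages lay under E18 without overlap, by a small margin that missed the threshold in this region (log2 −0.46 ± 0.15, edgeR adjusted p = 0.0589, with 0.0387 by DESeq2, 0.0403 with the length offset, 0.0475 without the breed term and 0.0406 without the E28 DZ library) and passed over the window (log2 −0.51 ± 0.14, adjusted p = 0.0324), where its intron element at +7.1 kb, absent at E28, was added. The window call was lost without the E18 ZZ, the E18 DZ or the E28 ZZ library. TBXT had 1 region, which reached 11108 bp across the gene and its upstream side. It measured 33.5 and 30.8 CPM at E18, 35.0 and 26.6 CPM at E21 and 31.4 and 41.2 CPM at E28. The stages overlapped, the highest library was E28 DZ, and the log2 change from E18 to E28 was 0.13 ± 0.19 (edgeR adjusted p = 0.62). With called length as an offset this region passed as higher at E28 (log2 0.34, edgeR adjusted p = 0.0275), without the E28 DZ library the log2 change was −0.23 (adjusted p = 0.241), and without the E28 ZZ library it was 0.47 and passed (adjusted p = 0.0245). The TBXT promoter changed in opposite directions without the E28 DZ library (log2 −0.84) and without the E28 ZZ library (log2 0.62). The promoter count holds only the peaks that touch the promoter interval. In the E28 ZZ library the domain was split, and the piece over the start (5453 bp) measured 22.5 of the 31.4 CPM. In the E28 DZ library it was 1 peak of 10082 bp with 41.2 CPM. The E18 DZ domain was also split, with 26.0 of 30.8 CPM counted, and the E18 ZZ domain was not.

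The starts of TBXT (chr1:2716915-2717214, 29 CpG) and PRDM14 (chr4:65273738-65274037, 19 CpG) are printed because their promoters stayed open, again with each CpG in capitals.
TBXT promoter: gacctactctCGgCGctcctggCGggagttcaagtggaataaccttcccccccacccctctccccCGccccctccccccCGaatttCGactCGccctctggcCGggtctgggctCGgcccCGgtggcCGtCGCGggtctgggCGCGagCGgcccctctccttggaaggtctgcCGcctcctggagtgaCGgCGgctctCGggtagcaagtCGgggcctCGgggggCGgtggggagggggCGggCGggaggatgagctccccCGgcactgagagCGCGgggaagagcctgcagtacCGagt
PRDM14 promoter: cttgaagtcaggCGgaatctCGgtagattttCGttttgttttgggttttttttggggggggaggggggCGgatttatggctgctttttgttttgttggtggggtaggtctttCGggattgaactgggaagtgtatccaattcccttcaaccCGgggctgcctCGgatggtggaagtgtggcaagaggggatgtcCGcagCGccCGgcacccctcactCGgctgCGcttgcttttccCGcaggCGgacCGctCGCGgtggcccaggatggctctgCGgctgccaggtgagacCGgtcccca
Over 1000 bases centred on the start, the ratio of observed to expected CpG was 0.878 at TBXT, 0.737 at LIN28B and 0.67 at PRDM14, whose promoters did not pass as lower in the edgeR test of all 6 libraries. Other settings called some of them lower. DESeq2 called those of LIN28B and PRDM14, and edgeR called LIN28B over a 2 kb promoter (adjusted p = 0.0234). PRDM14 was called by edgeR with the length offset (adjusted p = 0.0243) or without the breed term (adjusted p = 0.0335). Without the E28 ZZ library the log2 change of LIN28B was −1.04. Without the E28 DZ library that of TBXT was −0.84, with its E28 ZZ peak split as described above. The ratio was 0.411 at LIN28A, 0.545 at POU5F1 and 0.739 at SALL4, which fell, and 0.692 at ZFP42. The loci without a promoter peak had 0.45 (NANOG), 0.352 (TDGF1) and 0.136 (NANOG-chr1). The median of 19559 protein-coding promoters was 0.654. Across the genome, 14.9% of the tested promoters with a ratio of 0.6 or more fell by E28, and 24.9% of those below it, among the 98.3% and 56.3% of such protein-coding promoters that were tested. The octamer ATGCAAAT, the motif of POU factors, was in none of the 10 loci's 300-base promoters on either strand and in 1.39% of all protein-coding promoters. The GC box GGGCGG was in those of LIN28A, POU5F1, ZFP42, PRDM14 and TBXT and in 50.6% of all.

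In the test of promoters alone, 3 of 7 fell from E18 to E28, with 18.0% of all promoters. These were LIN28A (edgeR adjusted p = 0.00752), SALL4 (log2 −1.71 ± 0.08, adjusted p = 0.00358) and POU5F1 (listed at 0 at E28, adjusted p = 0.0146). The POU5F1 call rests on the lack of a called peak in the promoter interval at E28. LIN28B and PRDM14 just missed the threshold (adjusted p = 0.0586 and 0.0521), and TBXT did not pass (adjusted p = 0.948). DESeq2 called 5 of 7, with 31.5% of all promoters. Without the E18 ZZ or the E18 DZ library edgeR called 2, with 4.604% and 1.823% of all. Where every library had called a peak in a region, 5 of the 10 member regions fell, with 18.1% of all: the promoter regions of LIN28A, SALL4 and POU5F1, the LIN28A intron and the LIN28B upstream element. The median log2 difference of the 10 was −1.03, and that of all such regions was −0.02.

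The steps between stages were also tested apart, without a test of 1 step against the other. From E18 to E21, LIN28A alone passed over gene windows by edgeR, with 1.76% of all windows called lower. DESeq2 called 6 windows, with 17.5% of all, and edgeR called 3 and 4 without the E28 ZZ or the E28 DZ library, with 8.83% and 9.36% of all. In the edgeR fit 5 members had an unadjusted p under 0.05, as had 7296 of all 24852 windows. No promoter passed by edgeR, with 0.0570% of all. In the promoter test 4 of 7 had an unadjusted p under 0.05, as had 4140 of all 19313 promoters, and DESeq2 called 4, with 12.9% of all. Over regions 3 of 10 fell, with 1.68% of all: both LIN28A regions and the LIN28B upstream element. When any 1 of the 4 libraries of these stages was left out, 1 library of its stage remained and no member window call held. Nearly all such window calls of the genome were lost as well, and so were most member region calls. The log2 change of the LIN28A window was then −0.97 to −1.29. From E21 to E28, the windows of LIN28A, SALL4 and TDGF1 fell, with 5.82% of all windows. In the promoter test LIN28A, SALL4 and POU5F1 fell, with 1.74% of all, and over regions SALL4 and both LIN28A regions fell, with 4.56% of all. The TDGF1 window and the POU5F1 promoter had no called peak at E28, so their calls rest on the lack of a peak. Without either E21 library, which leaves 1 library at that stage, none of the E21 to E28 member calls held. Nearly all such window calls of the genome were lost as well. Without the E21 ZZ or the E21 DZ library the log2 change was −1.38 and −1.72 for the LIN28A window and −0.75 and −0.93 for that of SALL4.

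No member differed between the breeds over windows by edgeR, with 0.00402% of all windows called, 1 locus at an unadjusted p under 0.05 and 0 called by DESeq2. The promoter test called 0 of 7 members and 0% of all promoters, with 1 member at an unadjusted p under 0.05, and DESeq2 called SALL4, lower in DZ. In the E18 DZ library the SALL4 peak was split, and its inner piece (7.10 CPM) was left out of the promoter count. That count was 53.5 CPM in ZZ and 48.1 CPM in DZ, and the whole region 53.5 and 55.2 CPM. At E21 and E28 its promoter count was also lower in DZ. The E18 DZ peak of POU5F1 was split too (promoter 9.49 and 3.58 CPM, region 9.49 and 6.94 CPM). Over regions 0 of 10 passed and 0% of all, with 1 at an unadjusted p under 0.05 and 0 by DESeq2. The values lay lower in DZ for 10 of 10 windows (median log2 difference −0.27, and 0.004 over all windows), 7 of 7 promoters (median −0.30) and 8 of 10 regions (median −0.20). The fit assumes 1 breed difference for all stages, and with 1 library per breed and stage a breed difference at a single stage could not be tested.

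The members were also read as the share of barcodes with a count. After each barcode was thinned to 4000 counts, 17.9% (exact 95% interval 17.2 to 18.6) of barcodes in the E18 ZZ library and 17.0% (16.2 to 17.8) in the E18 DZ library had a count in the LIN28A promoter region. At E28 the shares were 2.61% (2.27 to 2.98) and 2.61% (2.27 to 2.99). The intervals cover counting error only. POU5F1 went from 2.98% and 2.17% to 0.608% and 0.541%, and SALL4 from 15.4% and 15.7% to 7.76% and 6.35%. PRDM14 was at 8.26% and 8.31% at E18 and 6.14% and 5.52% at E28, and TBXT at 9.96% and 8.94% and at 8.66% and 11.7%. Thinning left out 4.16% to 17.8% of the barcodes of a library. Unthinned, LIN28A was at 28.6% and 28.8% at E18 and 4.07% and 4.24% at E28.

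**Figure D4:**
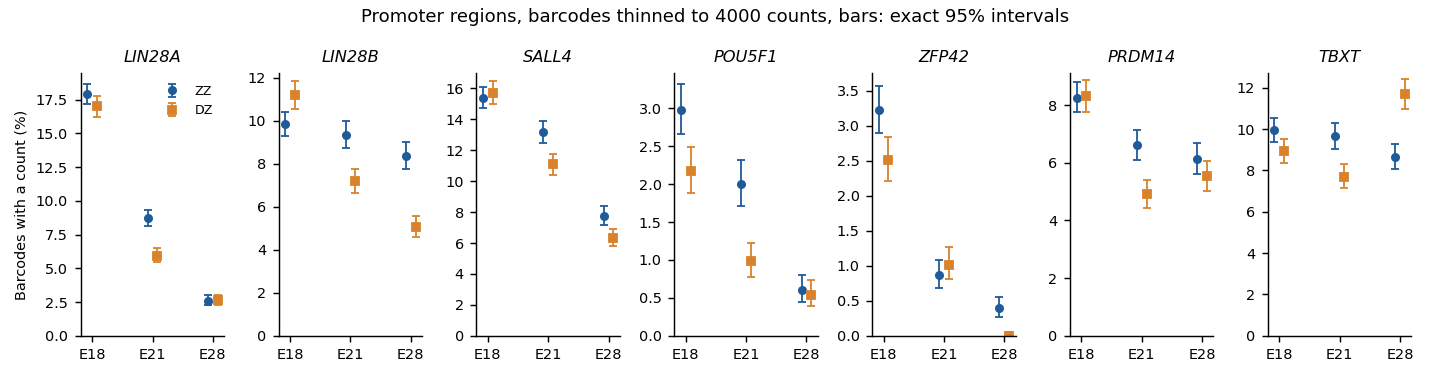
Percent of barcodes with at least 1 count in the promoter region of each of 7 members, by stage and breed, after thinning to 4000 counts, with exact 95% intervals that cover counting error only. Only peaks called in each library were scored, and their width differs between libraries. LIN28A lies at 17.9% and 17.0% at E18 and 2.61% and 2.61% at E28, while TBXT lies at 9.96% and 8.94% at E18 and 8.66% and 11.7% at E28.

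The cells were grouped into 11 clusters on regions away from the members and the marker genes. The mixture of cells shifted with stage. A cluster with epithelial markers, named epithelial-like from KRT8, KRT18, EPCAM, CDH1 and others (8 of 10 raised), held 40.9% and 30.2% of the E18 libraries and 1.51% and 0.85% of those of E28. It also had 4 of 7 cardiac and smooth muscle markers and 2 of 5 primordial germ cell markers raised. One with neural progenitor markers (SOX1, SOX2, PAX6 and others, 7 of 10 raised) held 18.0% and 29.4% at E18 and 0.53% and 0.31% at E28. This cluster also had 5 of 9 neuron markers raised, ELAVL3, ELAVL4, NEUROD1, NEUROG1 and NHLH1. In a whole library, fewer cells of a type and less open chromatin per cell cannot be told apart. The members were therefore read within clusters as well, as a description over libraries.

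LIN28A, SALL4, LIN28B, PRDM14 and TBXT were open in every cluster, and ZFP42 and NANOG differed more between clusters. The ZFP42 promoter measured 16.2 and 16.3 CPM in the epithelial-like cells of the E18 ZZ and DZ libraries, and 4.57 and 4.64 CPM in the neural progenitor-like cells of the same libraries. In a fibroblast and mesenchyme-like cluster (cluster 6), with few barcodes at E18, it measured 21.6 and 7.57 CPM. In epithelial-like cells it was still 16.6 CPM in the E21 ZZ library, 7.46 CPM in the E21 DZ library and 5.43 CPM in the E28 ZZ library. The epithelial marker list, all 10 genes summed, measured 454 and 431 CPM in the whole E18 libraries, 283 and 261 CPM at E21 and 202 and 197 CPM at E28. It moved with ZFP42, as did other lists such as gut endoderm (323 and 308 CPM at E18, 157 and 200 CPM at E28). The fibroblast and mesenchyme list went the other way (783 and 723 CPM at E18, 985 and 897 CPM at E28). The part of these shifts in the ZFP42 result was not tested. Markers of primordial germ cells, which also use POU5F1, NANOG, LIN28A and PRDM14, summed to 96.9 and 95.1 CPM at E18, 77.1 and 65.8 CPM at E21 and 65.2 and 68.9 CPM at E28, with 5 of 5 annotated markers above 0 at E18 and 4 of 5 at E28, and their part in the results was not tested. At E18 the NANOG window measured 4.26 and 6.00 CPM in the neural progenitor-like cells of the ZZ and DZ libraries, 4.49 and 6.81 CPM in the neural crest and glia-like cells, and had a mean of 0.417 to 1.95 CPM in the other clusters with a value at E18. At E21 it measured 7.26 and 6.74 CPM in the neural progenitor-like cells and 8.32 and 1.84 CPM in the neural crest and glia-like cells. The neural progenitor-like cluster held 18.0% and 29.4% of the ZZ and DZ cells in the E18 libraries, 14.2% and 7.95% of the E21 cells and 0.53% and 0.31% of the E28 cells, too few there for a value (50 and 29 cells). The neural progenitor marker list, 10 of 10 genes above 0 in every library, summed to 543 and 563 CPM at E18, 512 and 435 CPM at E21 and 267 and 341 CPM at E28, so it moved with NANOG, and its part in the NANOG result was not tested. In neural progenitor-like cells the POU5F1 window measured 11.5 and 10.6 CPM at E18 and 14.2 and 8.43 CPM at E21. In neuron-like cells TDGF1 measured 7.38 and 7.50 CPM at E18 and 9.65 and 7.39 CPM at E21. The neuron-like cluster held 17.1% and 10.2% of the E21 cells and 0.53% and 1.80% of the E28 cells. The part of these shifts in the POU5F1 and TDGF1 results was not tested.

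In the 7 clusters with at least 100 barcodes in every library, the stages were compared with counts summed per library. This comparison was added after the data were seen. Peaks were called on whole libraries, so a locus without a called peak in a library is at 0 there in every cluster. This held for TDGF1 and NANOG in both E28 libraries and for ZFP42 and NANOG-chr1 in the E28 DZ library. The counts below include these loci, whose calls do not measure a fall within a cluster. In myogenic-like cells (all 12 annotated markers raised) 8 of 9 tested loci fell from E18 to E28, with 24.3% of all windows. In the fibroblast and mesenchyme-like clusters 1 and 6, 4 of 9 and 5 of 9 fell, with 9.77% and 12.2% of all windows, and in the unnamed cluster 3 it was 7 of 10, with 22.7%. In sclerotome and cartilage-like cells 3 of 10 fell, with 10.6%, in neural crest and glia-like cells 7 of 10, with 16.4%, and in endothelial-like cells 4 of 8, with 17.2%.

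The windows of LIN28A, LIN28B and SALL4 were called lower in all 7 clusters. LIN28A went from 94.7 and 88.2 CPM at E18 to 13.8 and 12.4 CPM at E28 in myogenic-like cells (log2 −2.82 ± 0.20, edgeR adjusted p = 0.000173) and from 70.7 and 73.6 CPM to 16.9 and 13.5 CPM in cluster 1, which held 19.6% and 45.1% of the E28 ZZ and DZ libraries (log2 −2.12 ± 0.21, adjusted p = 0.000569). In myogenic-like cells the log2 changes of LIN28B and SALL4 were −1.48 and −1.74. The LIN28B window includes the 7 intron regions without a called peak at E28, which stand at 0 there in every cluster. In myogenic-like cells its promoter region measured 31.6 and 31.7 CPM at E18 and 31.8 and 18.6 CPM at E28. The region 3.0 kb upstream, called in every library, measured 12.2 and 16.5 CPM at E18 and 2.20 and 3.09 CPM at E28. TBXT passed in none of the 7, with log2 differences from −0.47 to 0.95. PRDM14 fell in the myogenic-like and the neural crest and glia-like cells (log2 −0.64 and −0.90) and POU5F1 in the myogenic-like cells and cluster 3 (log2 −1.58 and −1.48). ZFP42 was called lower in clusters 3 and 6 and in the myogenic-like and neural crest and glia-like cells, with no called peak in the E28 DZ library. The E18 libraries held 131 and 127 barcodes of the sclerotome and cartilage-like cluster, so a weak member such as POU5F1 (1.67 and 15.5 CPM there, from 2 and 17 counts) could not be measured well.

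**Figure D5:**
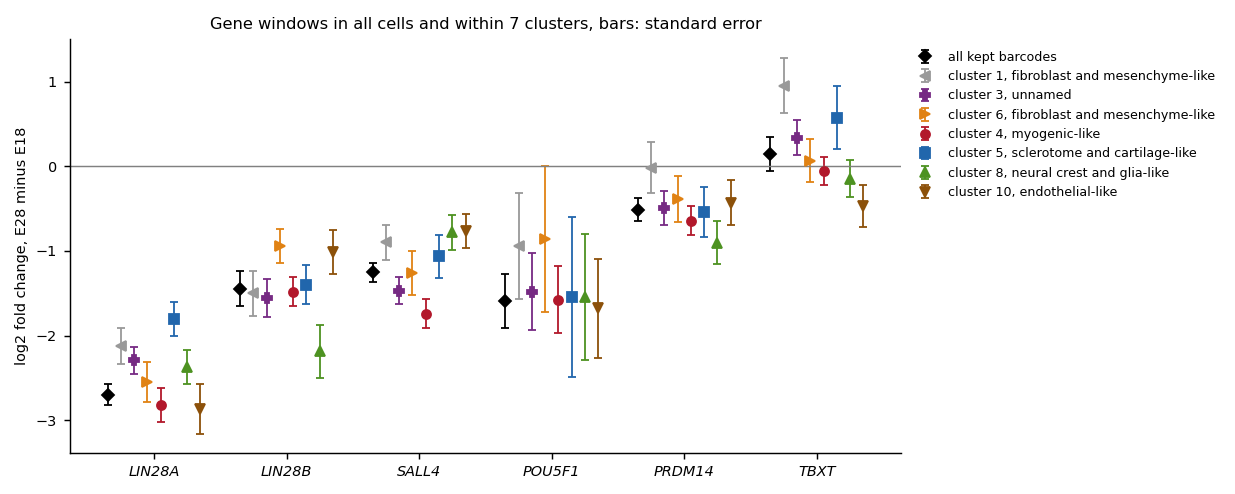
Log2 fold change from E18 to E28 of 6 gene windows in all kept barcodes (black) and within 7 clusters, with bars for the standard error. LIN28A lies between −1.81 and −2.87 in every set, and TBXT between −0.47 and 0.95.

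Other genes of the same programmes were counted in the same tests, with gene lists chosen when earlier results of these data were known. The shares of all windows and promoters called lower were the 23.2% and 18.0% above. Of 20 tested windows of the wider pluripotency network, 12 fell from E18 to E28 and 1 rose (KLF2, log2 0.94), and of 14 promoters 8 fell. The promoter of TFCP2L1, a factor of naive pluripotency, went from 21.8 and 22.6 CPM to 10.6 and 7.10 CPM (log2 −1.51 ± 0.18, edgeR adjusted p = 0.016), and that of FGF4, a growth factor of the inner cell mass and streak, from 8.17 and 7.38 CPM to 3.30 and 2.899 CPM (log2 −1.49 ± 0.33, adjusted p = 0.0356). Of 9 epiblast and NODAL pathway windows, 1 fell, NODAL itself (15.5 and 15.8 CPM to 5.76 and 2.82 CPM, log2 −1.996 ± 0.308, adjusted p = 0.00781), the ligand that TDGF1 serves, and of 7 promoters none was called lower or higher by edgeR.

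Of 16 tested promoters of streak, tailbud and presomitic mesoderm genes, the programme of TBXT, 9 fell and none rose, and of 19 windows 9 fell and none rose. FGF17, a tailbud growth factor, went from 11.4 and 8.56 CPM to 1.68 and 1.23 CPM (log2 −2.94 ± 0.27, edgeR adjusted p = 0.0105), and CDX1, an axial patterning factor, from 17.1 and 15.3 CPM to 3.55 and 3.07 CPM (log2 −2.45 ± 0.20, adjusted p = 0.00841). Of 6 notochord windows 2 fell, SHH and NOTO (log2 −0.57 and −0.53), and of 6 promoters 1, SHH, from 58.9 and 53.7 CPM to 4.78 and 3.46 CPM (log2 −3.92 ± 0.59, adjusted p = 0.021). Of 7 germ line windows 3 fell (DND1, PRDM1 and SOX17), and of 6 promoters 3, led by DND1, an RNA-binding protein of germ cells, from 21.6 and 20.9 CPM to 8.97 and 8.04 CPM (log2 −1.48 ± 0.13, adjusted p = 0.0103), and KIT, from 36.7 and 39.9 CPM to 29.6 and 21.9 CPM (log2 −0.74 ± 0.13, adjusted p = 0.0249).

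The partners and targets of LIN28 in the let-7 pathway were counted as well. Of 10 windows 2 fell (DIS3L2 and ARID3B, log2 −0.68 and −0.42) and 4 rose (DICER1, IGF2BP3, TUT7 and MYC, log2 0.30 to 0.38), and of 10 promoters 2 rose and none fell. Of all windows and promoters, 19.9% and 12.9% rose. The promoters were DICER1, the nuclease that cuts let-7 precursors (42.0 and 49.0 CPM to 62.1 and 65.3 CPM, log2 0.33 ± 0.07, edgeR adjusted p = 0.0294), and IGF2BP3, an RNA-binding protein (69.2 and 71.4 CPM to 96.2 and 108.6 CPM, log2 0.39 ± 0.09, adjusted p = 0.0398). Among 10 windows of paralogues of the members 7 fell, and among their 10 promoters 7 fell and 1 rose. The largest falls were SALL1 (73.1 and 76.1 CPM to 23.6 and 31.9 CPM, log2 −1.58 ± 0.19, adjusted p = 0.016) and the T-box gene TBX6 (70.5 and 63.8 CPM to 29.3 and 22.0 CPM, log2 −1.56 ± 0.08, adjusted p = 0.0038). The rise was YY1, the ubiquitous relative of ZFP42 (56.1 and 54.8 CPM to 82.96 and 81.4 CPM, log2 0.41 ± 0.10, adjusted p = 0.0415).

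Among 80 genes of these lists, the one whose window level (log2 of CPM + 1) ran most like that of LIN28A over the 6 libraries was TRIM71, with r = 0.993. For LIN28B it was SP5 (r = 0.987), for SALL4 RIPPLY2 (r = 0.993), for POU5F1 NKX1-2 (r = 0.971), for ZFP42 DDX4 (r = 0.991), for PRDM14 NOTO (r = 0.959), for TBXT GSC (r = 0.976), for NANOG-chr1 NR0B1 (r = 0.976), and for both NANOG and TDGF1 SALL3 (r = 0.980 and 0.990). These points share libraries and depth, and the values describe these 6 libraries.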

How the data were processed

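Single-cell ATAC-seq of 6 libraries was analysed. The authors aligned reads to Sscrofa11.1 and called peaks in each library with Cell Ranger ATAC, and deposited, per library, peaks, barcodes and raw counts of Tn5 cut sites per peak and barcode (Seurat 3.1.1 and Signac 0.2.2 are also named in the submitters' processing notes). Counts are not fragments, and none exist outside called peaks. Barcodes with 2000 to 30000 counts were kept and summed per library. No doublet caller was run. Gene windows, promoters (1 kb upstream to 500 bp downstream of any start) and merged regions came from the RefSeq annotation. They were tested over all features with edgeR 4.0.16 (TMM, filterByExpr, stage and breed terms, 2 residual degrees of freedom, Benjamini-Hochberg adjusted p under 0.05) in R 4.3.3, with DESeq2 1.42.0 as an alternative. The fit was tested on simulated counts in which a small set of windows changed by known folds, at a fixed spread and without breed differences. That check does not cover peaks that are lost or narrowed in some libraries. P-values measure the spread between libraries, which differ in breed and sow. Standard errors of edgeR changes were derived as the absolute log2 change divided by the square root of its F statistic. Clusters came from latent semantic indexing in Python 3.11.15. All members were named. From each list up to 2 genes with the largest rise and 2 with the largest fall past the threshold in the promoter fit (or the window fit where no promoter passed) were named; other list genes called over windows were named after their values were seen. The members and gene lists were chosen with earlier results of these data known.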

Additional observations from a re-analysis of the deposited data

Results flagged for a closer look

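In 2 members the breeds moved in opposite directions between stages, each from 1 library per breed and stage, so the difference was not tested. For the TBXT window, the log2 difference from E18 to E28 was −0.09 in ZZ and 0.42 in DZ, a DZ minus ZZ value of 0.51. From E18 to E21 it was 0.07 in ZZ and −0.21 in DZ, a value of −0.28, and from E21 to E28 it was −0.16 in ZZ and 0.63 in DZ, a value of 0.79. For the PRDM14 window, the log2 difference from E21 to E28 was −0.16 in ZZ and 0.18 in DZ, a value of 0.34.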

How the results depend on the processing

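The labels give no replicate numbers, and the breed term paired the libraries across stages. Without it, 7, 1 and 4 windows, 4, 0 and 3 promoters and 6, 2 and 3 regions were lower from E18 to E28, E18 to E21 and E21 to E28 (25.4%, 2.82% and 6.66% of all windows, 22.9%, 0.906% and 4.59% of all promoters and 17.9%, 2.09% and 4.78% of all regions). Leaving out 1 library at a time gave 4 to 9 windows lower from E18 to E28, 0 to 4 from E18 to E21 and 0 to 5 from E21 to E28, 2 to 5, 0 to 2 and 0 to 4 promoters, 5 to 6, 0 to 6 and 0 to 4 regions, and 0 to 0 members between breeds. Over all windows the share called lower in these steps was then 6.70% to 23.5%, 0% to 9.36% and 0.051% to 10.3%, over all promoters 1.82% to 20.8%, 0% to 1.66% and 0.650% to 7.04%, and over all regions 4.56% to 20.2%, 0% to 8.88% and 0% to 12.8%. The lone library of a stage was then assumed to vary like the others. DESeq2 called 6 windows, 4 promoters and 5 regions from E18 to E21 (17.5%, 12.9% and 6.44% of all), 6 windows from E21 to E28 (19.4%), 5 promoters from E18 to E28 (31.5%) and 1 promoter between breeds (0.647%). With the called length as an offset, which drops the 4 loci without a peak in some library, 2 of 6 windows were lower from E18 to E28 (1.68% of all), 1 of 6 windows (0.555%) and 1 of 10 regions (2.31%) from E21 to E28 and 1 of 5 promoters (1.26%) from E18 to E21. With regions called in at least 2 libraries, 10 of 26 were lower from E18 to E28 (8.45% of all) and 0 in each of the other steps. Of the 26, 10 have a peak in every library. The others stand at 0 where no peak was called, so calls among them rest on the lack of a peak. The fits within clusters were an alternative chosen after seeing the data. In clusters 1, 3 and 4, 4 of 9, 7 of 10 and 8 of 9 windows were lower (9.77%, 22.7% and 24.3% of all). In clusters 5, 6, 8 and 10 it was 3 of 10, 5 of 9, 7 of 10 and 4 of 8 (10.6%, 12.2%, 16.4% and 17.2%). These counts include loci without a called peak in an E28 library. The share of regions lost was 27.59% (21.28% of all regions) when absence at E21 was also asked and 33.33% (22.89%) for E18 peaks open in at least 1% of barcodes. With a reciprocal overlap of 50%, 79.17% (58.58%) of the E18 ZZ peaks matched in E18 DZ had no E28 match, narrowed peaks included. For non-promoter regions the first 2 gave 36.36% (23.23%) and 54.55% (27.07%), and for promoter regions the overlap rule gave 50% (22.39%). Log2 changes from E18 to E28 that turned with the length offset were the POU5F1 window (0.46), its regions at −0.5 kb (0.36) and −4.8 kb (0.12), the TBXT promoter (0.20) and the LIN28B region at +121.2 kb (0.29), and from E21 to E28 the LIN28A window (0.18) and its +0.3 kb region (0.36). TBXT turned without E28 DZ (window −0.22, region −0.23), and its promoter without E18 ZZ (0.25) or E28 ZZ (0.62), over ranges of −0.22 to 0.47, −0.23 to 0.47 and, for the promoter, −0.84 to 0.62. The cause was not tested.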
